A study of Mus musculus with 7 samples.

Results

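Integrins and collagens are receptor and ligand families of the extracellular matrix, and 53 of their genes were followed here across the cell types of the mouse brain microvasculature and between 2 ages. The genes were those of the 32285 shared by all files whose symbol has the form of an integrin alpha or beta chain or of a numbered collagen alpha chain, and which held at least 50 unique molecular identifiers (UMIs, counted transcript molecules) summed over all 7 libraries. Col4a1 and Col4a2, the main chains of vascular collagen IV, and Col18a1 were left out by the same rule. Of the 69 symbols that remained, 53 passed the UMI minimum, 23 of them integrin and 30 collagen genes. Just inside the minimum stood Itgae with 59 and Col20a1 with 72 UMIs, and just outside it Itgb6 with 45 and Col25a1 with 39. The largest totals were those of Itga1 with 95749, Itgb1 with 85468 and Itga6 with 78807 UMIs. The genes were thus chosen by their UMI totals, so the totals are a description only. It used neither the cell type nor the age of a cell, so contrasts of cell types and ages were tested.

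Integrins are cell surface receptors made of 1 alpha and 1 beta subunit, and the pairing sets the ligand. In general, alpha1, alpha2 and alpha10 with beta1 bind collagens, alpha3, alpha6 and alpha7 bind laminins, and alpha5, alpha8 and alphav bind the RGD peptide of fibronectin and related proteins. The chains alpha4 and alpha9 bind fibronectin, VCAM-1 or tenascin, and alphaL, alphaM and alphaX with beta2 are leukocyte receptors for ICAMs and complement. Inside the cell, talins and kindlins activate integrins and link them to actin. Collagens are triple helices of alpha chains. Fibrillar collagens (I, III, V and others) form tensile fibres, collagen IV forms the network of basement membranes, collagen VI forms beaded filaments, and collagens XIII and XXIII span the cell membrane. In the brain, endothelial cells and pericytes share a basement membrane that is held by integrins on either side, and smooth muscle cells surround the larger vessels. In the same tissue, microglia are the resident phagocytes and lymphocytes circulate through the vessels.

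The cells came from untreated C57Bl6 mice, with 3 libraries at an age of 12 months and 4 libraries at 3 months. Vessel cells of 1 hemisphere, without cerebellum, brain stem and olfactory bulbs, were released with collagenase, captured with beads carrying a CD31 antibody (CD31 is an endothelial surface protein) and profiled as single-cell libraries. All groups were wild type. All 12-month libraries (the main set of the labels) had single and all 3-month libraries (the supplementary set) dual indices, and the authors made their counts with Cell Ranger 4.0.0 and 6.1.1 respectively, so that age, set, index type and software version cannot be told apart. The labels call the libraries replicates without saying that each came from a separate mouse, and p-values measure the spread between these libraries, which may be partly technical.

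Several of the genes lie beside each other in the genome. In GENCODE coordinates of GRCm38, Col4a3 and Col4a4 on chromosome 1 are transcribed away from each other from starts 72 bases apart. The same head to head arrangement holds for Col4a5 (chromosome X, 141475385 to 141689234, forward strand) and Col4a6 (chromosome X, 141165403 to 141474076, reverse strand), whose starts are 1309 bases apart. Itgam (chromosome 7, 128062640 to 128118491, forward strand) lies 11055 bases from Itgax, and Itga1 lies 20995 bases from Itga2 on chromosome 13. Itga4 lies on chromosome 2 (79255426 to 79333123, forward strand), and Itgb5 on chromosome 16 (33829665 to 33949338, forward strand). RefSeq's table of GRCm38.p6 held promoter windows for 39 of the 53 genes. The 4 genes shown here, on which later results turn, are given by the bases that precede both the RefSeq and the GENCODE start, 5′ to 3′ on the strand of the gene. Itga4 is the gene that differed most between the ages in capillary cells, Itgam is the leukocyte chain of microglia, and Col4a5 and Col4a6 are a neighbouring pair that both reached their highest named-class level in smooth muscle. Capitals mark matches, on either strand, to 4 motifs, whose matches in these stretches do not overlap. The CCAAT box was searched as CCAAT. The GC box, a site of the general factor Sp1, was searched as GGGCGG and reads CCGCCC on the opposite strand. The TATA box was searched as TATAAA. A purine-rich motif of the kind that the myeloid factor PU.1 binds was searched as GAGGAA and reads TTCCTC on the opposite strand.
Col4a5, chrX:141475169-141475384, forward: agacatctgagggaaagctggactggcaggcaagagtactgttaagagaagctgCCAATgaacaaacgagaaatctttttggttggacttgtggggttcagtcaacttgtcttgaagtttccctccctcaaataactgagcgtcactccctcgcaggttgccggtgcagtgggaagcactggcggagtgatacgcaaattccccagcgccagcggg
Col4a6, chrX:141474077-141474326, reverse: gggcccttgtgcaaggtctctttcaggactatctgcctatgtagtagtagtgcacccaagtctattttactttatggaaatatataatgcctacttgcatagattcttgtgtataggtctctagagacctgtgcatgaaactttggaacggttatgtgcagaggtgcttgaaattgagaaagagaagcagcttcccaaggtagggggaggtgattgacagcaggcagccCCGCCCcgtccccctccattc
Itga4, chr2:79255176-79255425, forward: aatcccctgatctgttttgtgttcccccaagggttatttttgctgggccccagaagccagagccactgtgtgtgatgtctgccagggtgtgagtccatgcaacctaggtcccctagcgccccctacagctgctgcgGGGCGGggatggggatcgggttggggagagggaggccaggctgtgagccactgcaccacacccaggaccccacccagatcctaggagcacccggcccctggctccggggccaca
Itgam, chr7:128062390-128062639, forward: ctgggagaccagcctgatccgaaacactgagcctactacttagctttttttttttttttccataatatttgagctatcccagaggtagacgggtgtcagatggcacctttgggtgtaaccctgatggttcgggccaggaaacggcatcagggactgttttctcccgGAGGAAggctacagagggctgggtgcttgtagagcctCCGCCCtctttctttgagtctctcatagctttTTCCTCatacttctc
The Col4a5 stretch held 1 CCAAT box and the Col4a6 stretch 1 GC box. The Itga4 stretch held 1 GC box, and the Itgam stretch held 1 GC box and 2 purine-rich matches. None of the 4 stretches held a TATA box. Over all 32841 RefSeq windows of 250 bases before the start, 33.9% held a CCAAT box, 32.7% a GC box, 23.3% the purine-rich motif and 12.4% a TATA box on either strand. Of the 41 windows of the 39 genes, 9, 22, 13 and 4 held them in the same order. A match describes the letters only.

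Levels are given as CPM, the UMIs of a gene per 1000000 UMIs of all genes, summed over the cells of 1 class in 1 library. After filters on genes detected, mitochondrial share and doublets, 37176 of 43091 barcodes were kept, 3795 to 8912 per library. Library totals ran from 8706961 to 44861008 UMIs and median UMIs per cell from 1095 to 5338, with 12-month replicate 1 the shallowest on both. Any pair of libraries shared at most 0.373% of barcodes. Clusters were named from markers that did not include any of the 53 genes, and 20959 cells fell into the 8 named classes followed here. Choroid plexus, erythroid and platelet clusters were named too and are not among the 8. These held 10578 capillary, 2976 arterial and 2069 venous endothelial cells, 906 pericytes, 1107 smooth muscle cells, 2720 microglia, 422 B cells and 181 T and NK cells. Sums of fewer than 20 cells were dropped, which left all 7 libraries for the first 6 classes, 6 for B cells and 3 for T and NK cells. Pericytes numbered only 34 to 311 per library. The pericyte sums also carried 6720 to 11140 CPM of 8 endothelial markers, against 14680 to 19740 in capillary cells and 379 to 1353 in smooth muscle cells, so the pericyte values are given also for the 515 pericytes in which endothelial markers made up less than 0.5% of UMIs (6 libraries with at least 20 such cells).

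Levels differed between the classes. Of the 53 genes, 31 reached 20 CPM in at least 1 named class, and the class with the highest mean was smooth muscle for 10 of them, microglia for 7, arterial cells, venous cells, pericytes and T and NK cells for 3 each, and capillary cells and B cells for 1 each. Another 11 reached 20 CPM only in a cluster without a class name, and these are described after the named classes. The remaining 11 (Col9a3, Itga2b, Itgb8, Col8a2, Col7a1, Col11a2, Col28a1, Col12a1, Col17a1, Col20a1 and Itgae) did so in none of the 8 classes nor in the clusters led by Plvap, Dcn or Lyz2. Levels in choroid plexus and erythroid cells were not computed. Over all barcodes, Col9a3, Itgb8 and Col8a2 had 1119, 316 and 164 UMIs in 3-month replicate 3, with 34 choroid plexus cells. In 3-month replicate 4, with 1 such cell, they had 45, 14 and 3 UMIs. Their level in choroid plexus was not tested. Itga2b, the platelet alphaIIb chain, was at 67.2 ± 36.8 CPM (SD, n = 3 libraries) in a small platelet cluster.

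**Figure D1:**
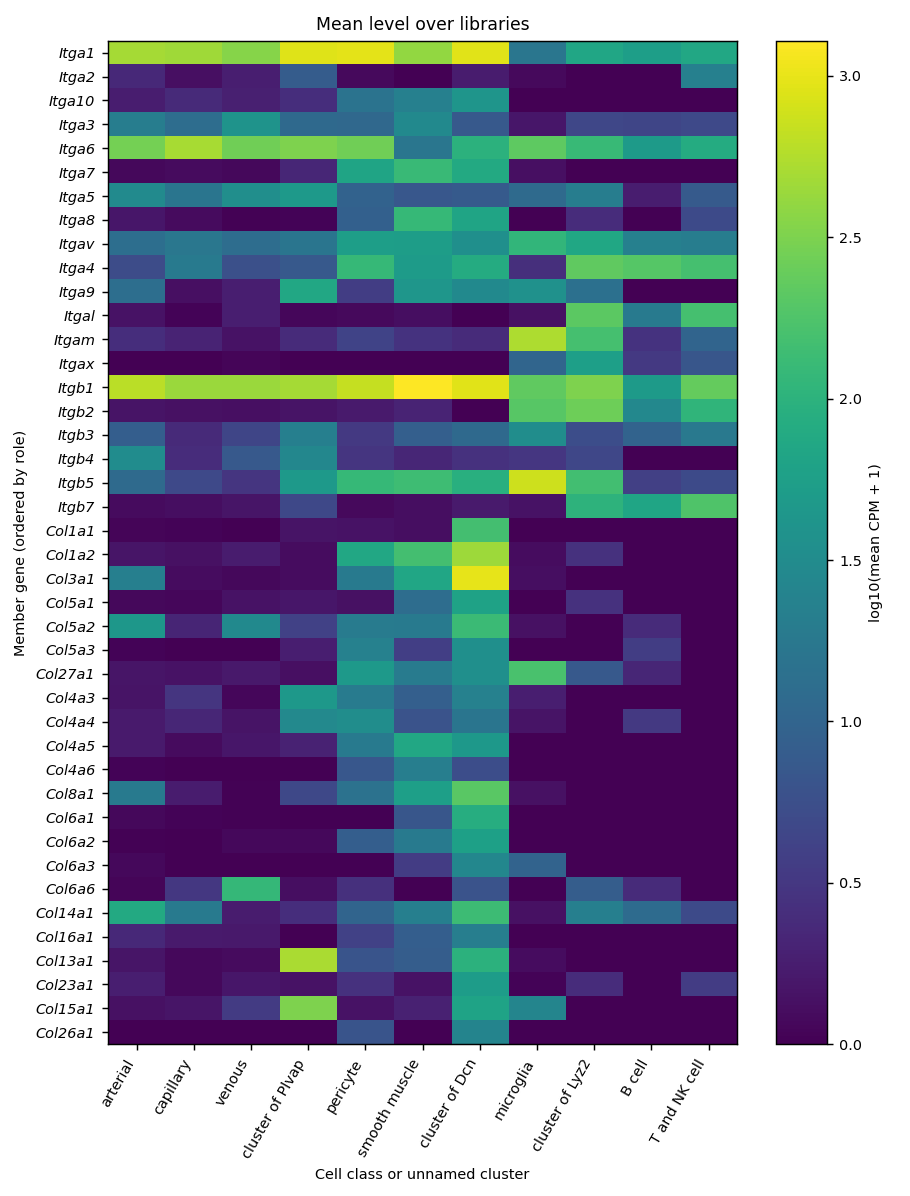
Mean level over libraries of the 42 genes that reached 20 CPM, as log10(mean CPM + 1), in the 8 named classes and the clusters led by Plvap, Dcn and Lyz2. Rows are genes ordered by role and columns are classes. Itgb1, Itga1 and Itga6 were high in nearly every vascular column, while Col6a6 stood out in venous cells, Itgam in microglia and Col13a1 in the Plvap cluster. Colours are meant for comparing classes within a gene and not genes with each other.

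Endothelial segments were compared first, within library, with the edgeR quasi-likelihood test. In arterial against capillary cells 40.3% of all genes tested passed an adjusted p of 0.05, and 35% of those that neither clustering nor naming had used, to which the 53 genes belong. Among the 53 genes, 16 passed the filter on low counts, of which 11 were higher in arterial cells, 4 lower and 1 not called, with a median log2 difference of 1.08 against -0.009 over all genes tested. In venous against capillary cells the background shares were 43.6% and 38.5%, and of 17 genes tested 9 were higher, 7 lower and 1 not called, with a median of 0.85 against 0. The genes that the filter removed were too low in both classes to be tested, and those it kept could pass through the class in which they are high.

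Among the beta1 partners, the laminin-binding chain Itga6 was highest in capillaries. It measured a lowest, median and highest value of 300, 504 and 604 CPM over the 7 capillary sums, against 155, 283 and 382 in arterial and 159, 292 and 337 in venous sums. It was lower than in capillaries in every library, by -0.86 ± 0.056 (log2, SE) in arterial and -0.87 ± 0.066 in venous cells (adjusted p 1.298e-15 and 3.592e-13). Itga1, a collagen receptor chain, did not differ between arterial and capillary cells (484 ± 122 against 466 ± 99 CPM, SD, n = 7, adjusted p 0.942). In venous cells Itga1 was lower in all 7 libraries, at 348 ± 108 CPM (log2 -0.45 ± 0.071). The shared partner Itgb1 was higher in arterial than in capillary cells in all 7 libraries (605 ± 200 against 438 ± 130 CPM, log2 0.42 ± 0.056) and was not called in venous cells (432 ± 89.6 CPM, adjusted p 0.864). Itga3, another laminin-binding chain, had the opposite order to Itga6. Its lowest, median and highest values were 29.9, 38.0 and 48.8 CPM in venous and 10.3, 11.4 and 14.6 CPM in capillary sums, with no overlap (log2 1.72 ± 0.10, adjusted p 3.715e-16), and arterial cells lay between at 19.6 ± 7.38 CPM.

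The fibronectin receptor chain Itga5 was at 15.0 ± 2.26 CPM in capillary, 29.5 ± 6.88 in arterial and 33.5 ± 6.50 in venous cells (SD, n = 7). Neither large-vessel class overlapped with capillaries (log2 0.85 ± 0.11 and 1.22 ± 0.11, adjusted p 9.021e-08 and 1.225e-11). Itgb4, which pairs with alpha6 alone to bind laminin and anchors epithelial hemidesmosomes, had its highest values of the 3 segments in arterial cells. Its arterial values ran from 14.7 through a median of 27.9 to 54.7 CPM against 0.398, 1.08 and 3.84 in capillaries (log2 4.26 ± 0.20, adjusted p 3.975e-20), and venous cells were at 6.29 ± 4.35 CPM. Below 20 CPM, arterial cells were also higher for Itga9 (12.4 ± 8.92 against 0.323 CPM), Itgb3, Itgb5 and Itga3, and lower for Itga4, Itga2b and Itgav. Venous cells were higher for Itga2b, Itgb3 and Itgb4 and lower for Itga4, Itgav and Itgb5.

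All 4 collagen chains tested in arterial cells were higher there than in capillaries, and in venous cells 4 of 6 were higher and 2 lower. Over all genes tested 40.3% and 43.6% passed in these comparisons. Chains nearly absent from capillaries passed the filter through the other class and could hardly come out lower, so these counts are a description. Col6a6, an alpha chain of beaded-filament collagen VI, was high in venous cells. Venous cells of 12-month replicates 1 to 3 had 119, 101 and 118 CPM of it, and those of 3-month replicates 1 to 4 had 95.9, 138, 107 and 130 CPM. In capillary cells its level was 2.20 ± 3.09 CPM, and in arterial cells 0.108 ± 0.185 CPM, so that the venous values overlapped with neither (venous against capillary log2 6.43 ± 0.26, adjusted p 3.947e-08). Col14a1, a fibril-associated collagen, had the reverse pattern. Its lowest, median and highest values were 48.4, 77.6 and 104 CPM in arterial, 11.9, 16.5 and 22.5 in capillary and 0, 0.835 and 1.15 in venous sums, with no overlap between any of the classes (log2 2.06 ± 0.11 arterial and -4.75 ± 0.26 venous against capillary). Col5a2, a chain of fibrillar collagen V, was higher in both large-vessel classes, at 43.2 ± 8.23 CPM in arterial and 28.9 ± 13.2 in venous against 1.12 ± 0.786 in capillary cells (log2 4.92 ± 0.18 and 4.51 ± 0.19). Col3a1, the fibrillar collagen of extensible tissue, was found almost entirely in the arterial sums of the 3, with 5.63 to 48.5 CPM against at most 0.717 in capillary and 0.417 in venous sums (arterial against capillary log2 5.84 ± 0.28, adjusted p 1.702e-19). Smooth muscle markers were present at 22.7 to 96.7 CPM in arterial and 13.3 to 113 CPM in capillary sums beside these values, with all 8 markers detected in both, and Col3a1 stood at 68.8 ± 33.8 CPM in smooth muscle itself. Their part in the arterial values was not tested.

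**Figure D2:**
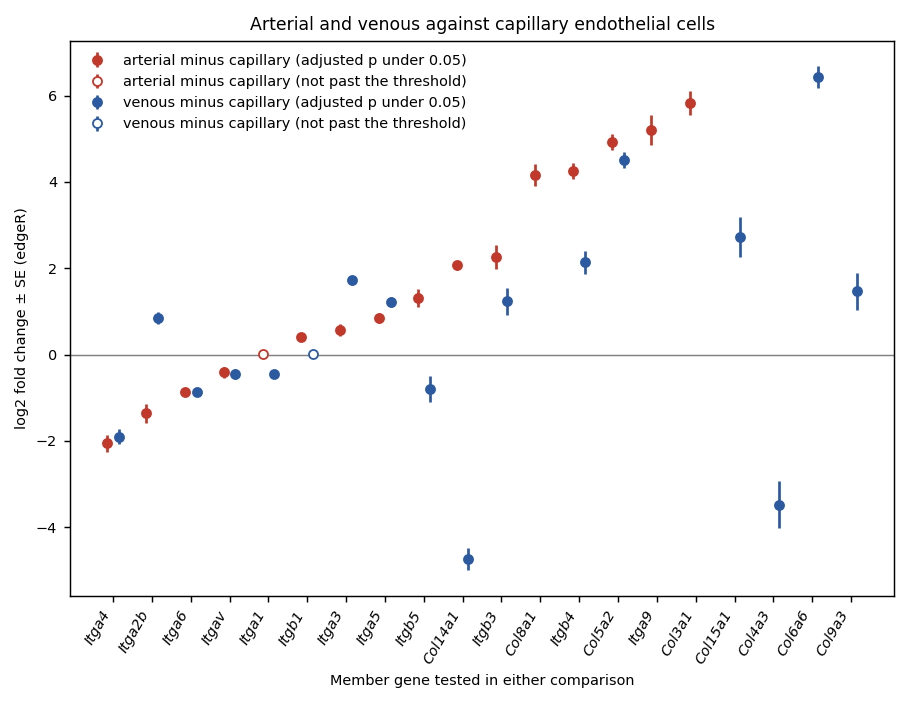
Log2 fold change with its SE (edgeR) of each gene tested in arterial (red) and venous (blue) against capillary endothelial cells, with open circles for adjusted p above 0.05. Col14a1 lies on opposite sides of 0 in the 2 comparisons, Col6a6 was tested only in venous cells at 6.43, and Itga6 and Itga4 lie below 0 in both.

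Pericytes, the mural cells of capillaries, carried many integrin and collagen transcripts that capillary endothelial cells nearly lacked. Against capillary cells 35.9% of all genes tested and 30.1% of those with no part in clustering or naming passed. Of the 53 genes 23 were tested, 19 were higher, 3 lower and 1 not called, with a median log2 difference of 3.79 against 0.012 over all genes. These split into 8 of 11 integrin genes higher and 2 lower, and 11 of 12 collagen genes higher and 1 lower. Genes nearly absent from capillaries passed the filter on low counts through their pericyte sums, and such genes could hardly come out lower. The counts and the median are therefore a description, and the same holds for the class contrasts below.

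Itga1 was higher in pericytes in each library. Pericytes of 12-month replicates 1 to 3 had 712, 1088 and 1304 CPM, and those of 3-month replicates 1 to 4 had 545, 997, 957 and 1015 CPM, against 452, 467 and 467 and 270, 521, 485 and 596 in capillary cells of the same libraries (log2 0.96 ± 0.088, adjusted p 5.336e-12). Among pericytes with little endothelial RNA the level was 1624 ± 102 CPM (SD, n = 6). Itga7, the laminin-binding chain best known from muscle, ran from 17.4 through 66.7 to 109 CPM in pericytes against at most 0.959 in capillaries (log2 7.74 ± 0.29). Itga6 was lower in pericytes (268 ± 94.9 against 498 ± 111 CPM, log2 -0.98 ± 0.094), and it was 14.3 ± 8.62 CPM in the pericytes with little endothelial RNA, in which the difference was -5.25. Itgav, the chain shared by many RGD receptors, was at 53.7 ± 14 against 16.1 ± 3.72 CPM, and its partner Itgb5 at 120 ± 57.0 against 3.90 ± 3.43 CPM (log2 1.67 ± 0.15 and 5.02 ± 0.20). Neither overlapped between the classes. Itga4 was also raised, with 86.8, 122 and 152 CPM as lowest, median and highest value against 1.83, 25.8 and 32.9 in capillaries (log2 2.79 ± 0.48, adjusted p 0.00394). Itgb1 was at 686 ± 137 against 438 ± 130 CPM, higher in 7 of 7 libraries.

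Of the fibrillar chains, all 5 tested were higher in pericytes than in capillaries. Col1a2, a chain of collagen I, was at 55.9, 73.7 and 87.2 CPM as lowest, median and highest value, against at most 0.719 in capillaries (log2 7.24 ± 0.26). Its usual partner chain Col1a1 was at 0.408 ± 1.08 CPM in pericytes and 0.298 ± 0.788 CPM in smooth muscle cells, from 2 UMIs of 1 library in each. Col5a3 was at 22.0 ± 11.9 CPM in pericytes and had 0 UMIs in all capillary sums, which makes it at least 226.1-fold higher in UMIs pooled over the libraries when 3 counts over the group are allowed for a count of 0. Col27a1, a fibrillar chain of cartilage, stood at 47.4 ± 17.9 against 0.410 ± 0.445 CPM. The collagen IV chains outside the main pair were higher too. Col4a4 was at 32.3 ± 25.3 against 1.17 ± 0.710 CPM, its head to head neighbour Col4a3 at 18.5 ± 14.8 against 1.99 ± 1.42, and Col4a5 at 17.9 ± 4.70 against 0.238 ± 0.212 (log2 4.41 ± 0.42, 3.13 ± 0.44 and 5.82 ± 0.48). Col4a6 was not among the genes tested, at 5.91 ± 5.56 CPM with 0 UMIs in capillaries.

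Smooth muscle cells shared many chains with pericytes, and the balance between chains of 1 family differed between the 2 mural classes. Against pericytes 51.2% of all genes tested and 45.2% of those with no part in clustering or naming passed. Of 24 of the genes tested, 14 were higher in smooth muscle, 8 lower and 2 not called, with a median of 1.09 against -0.065 over all genes. The RGD-binding chain Itga8 was at 91.9, 110 and 187 CPM as lowest, median and highest value against 0, 7.15 and 18.6 in pericytes, and Itga9 was at 27.4, 43.1 and 61.0 CPM against 0, 2.56 and 4.30. Neither overlapped (log2 3.90 ± 0.23 and 4.0 ± 0.30, adjusted p 6.671e-15 and 5.47e-15). Itgb1 was at 1285 ± 491 against 686 ± 137 CPM, higher in 7 of 7 libraries (log2 1.14 ± 0.093). Itga3 was higher without overlap (28.6 ± 4.06 against 10.3 ± 6.96 CPM). Itga1 was lower in smooth muscle in all 7 libraries (401 ± 96.9 against 946 ± 249 CPM, log2 -0.95 ± 0.099), and Itga6 was at 15.5 ± 14.1 against 268 ± 94.9 CPM. In the pericytes with little endothelial RNA, Itga6 was as low as in smooth muscle (14.3 ± 8.62 CPM). Itga4 was lower in smooth muscle in all 7 libraries (50.0 ± 25.1 against 121 ± 28.1 CPM, log2 -1.05 ± 0.20).

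The collagen IV chains divided by neighbouring pair. Col4a5 was at 48.8, 72.4 and 123 CPM as lowest, median and highest value in smooth muscle and 11.8, 17.4 and 25.1 CPM in pericytes, and Col4a6 was at 20.4 ± 6.19 against 5.91 ± 5.56 CPM (log2 2.31 ± 0.19 and 2.25 ± 0.35, adjusted p 6.603e-14 and 5.884e-07). Col4a4 was lower in smooth muscle at 5.19 ± 2.45 against 32.3 ± 25.3 CPM, and Col4a3 at 7.83 ± 2.85 against 18.5 ± 14.8 (log2 -2.0 ± 0.31 and -1.15 ± 0.33). Fibrillar chains divided too. Col3a1 was higher (68.8 ± 33.8 against 17.3 ± 10.5 CPM, log2 2.18 ± 0.19), whereas Col5a3 (2.73 ± 2.21 against 22.0 ± 11.9 CPM) and Col27a1 (18.8 ± 6.34 against 47.4 ± 17.9 CPM) were lower. Col8a1, a short-chain collagen of vessel walls, was higher at 55.2 ± 14.8 against 13.8 ± 6.28 CPM with no overlap. The fibril-associated Col14a1 was also higher, at 20.9 ± 8.09 against 9.09 ± 5.05 CPM. Several differences changed when smooth muscle was set against the pericytes with little endothelial RNA. Those are fewer cells and hold no sum of 12-month replicate 1. Some larger differences kept their call but shrank, among them those of Col4a5 (log2 0.93), Itgb1 (0.45) and Col3a1 (1.58). Others grew, such as those of Col4a4 (-3.2), Itga4 (-2.34) and Itga1 (-1.68), and Col4a6 gave no value. There Itgb5 turned to lower in smooth muscle (log2 -0.53, adjusted p 0.00224), Itga7 (-0.21, 0.317) and Col6a2 (-0.58, 0.329) turned sign without a call, and Itga10 (0.18) and Col1a2 (0.31) were no longer called.

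**Figure D3:**
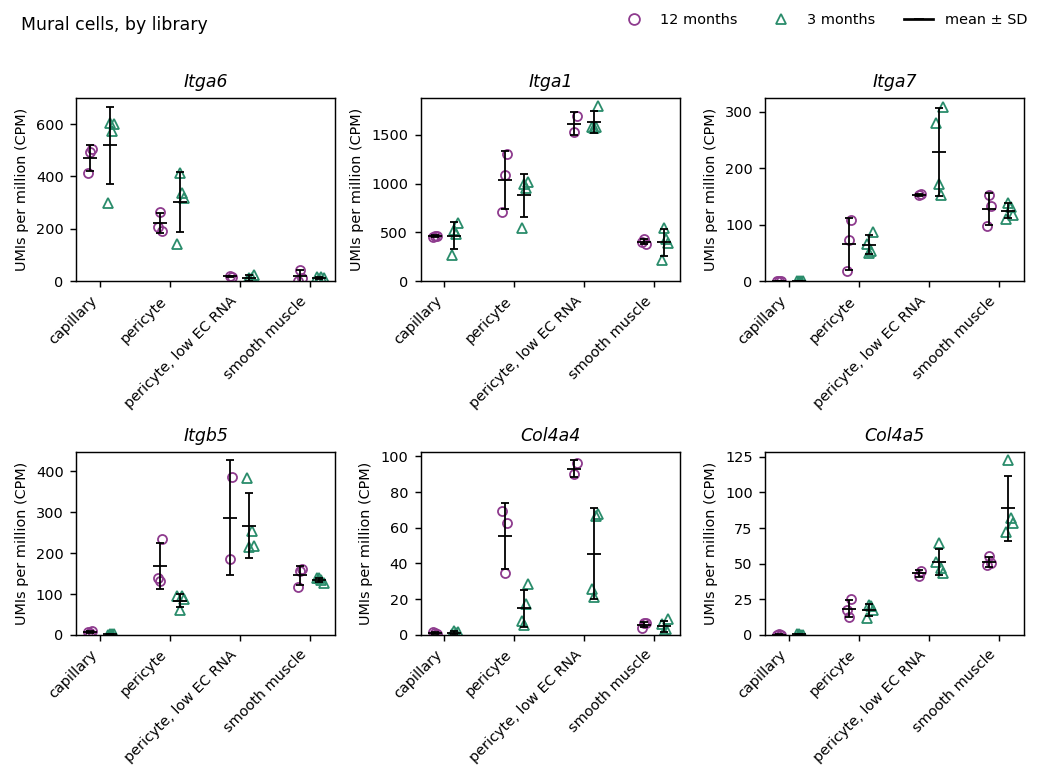
CPM of 6 genes per library in capillary cells, pericytes, the pericytes with little endothelial RNA and smooth muscle cells, with purple circles for 12 and green triangles for 3 months and bars for mean ± SD within an age. Itga6 falls to 14.3 ± 8.62 CPM in pericytes with little endothelial RNA while Itga1 rises to 1624 ± 102 CPM, and Col4a5 is highest in smooth muscle where Col4a4 is low.

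Microglia expressed leukocyte integrins and alphav partners and held little of the collagen receptor chain Itga1. Against capillary cells 71.3% of all genes tested and 68.2% of those with no part in clustering or naming passed, the largest background of the comparisons. All 19 of the 53 genes that were tested passed, 11 higher and 8 lower, with a median of 4.59 against -0.048 over all genes. Some of the 11, such as Itgax with 0 UMIs in capillaries, passed the filter through microglia and could not come out lower. Itgam and Itgb2, the chains of complement receptor 3, were at 363, 518 and 799 CPM and at 160, 212 and 230 CPM as lowest, median and highest value. Capillary sums held at most 2.74 and 1.41 CPM of them (log2 9.23 ± 0.20 and 8.60 ± 0.20, adjusted p 2.107e-21 and 1.931e-25). Itgax, the alpha chain of complement receptor 4 and a neighbour of Itgam, had 0 UMIs in capillaries and was at least 100.4-fold higher in microglia by the same pooled bound. Itgb5 was at 614, 682 and 877 CPM against 0.566, 1.79 and 9.24, and its partner Itgav at 80.8, 100 and 152 CPM against 11.3, 16.1 and 21.5, both without overlap (log2 7.74 ± 0.35 and 2.76 ± 0.12). Itgb3, the other classical alphav partner, was at 32.7 ± 9.89 against 1.32 ± 0.775 CPM, and Itga9 at 36.6 ± 10.0 against 0.323 ± 0.356. Itga1 was nearly absent from microglia (15.6 ± 10.8 against 466 ± 99 CPM, log2 -5.21 ± 0.15). Itga6 (218 ± 54.3 CPM) and Itgb1 (224 ± 67.6 CPM) were lower than in capillaries in all 7 libraries, by -1.19 ± 0.097 and -0.97 ± 0.095.

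Collagens in microglia were few. Col27a1 was at 97.7, 171 and 230 CPM as lowest, median and highest value against at most 1.21 in capillaries (log2 8.46 ± 0.23), above the 34.7 to 85.0 CPM of pericytes in every library sum. Col15a1, a collagen of the multiplexin kind, was at 25.3 ± 10.8 against 0.503 ± 0.606 CPM. Col6a3 was at 8.78 ± 5.43 CPM in microglia and had 0 UMIs in capillaries, a difference of at least 109-fold in UMIs pooled over the libraries. The 8 endothelial markers stood at 194 to 1253 CPM in the microglial sums, and Col1a1, Col4a5, Col4a6, Col5a1, Col5a3 and Col6a6 were at 0 there.

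Lymphocytes, B cells with T and NK cells, were set against microglia over 7 libraries, where 55.1% of all genes tested and 49.9% of those with no part in clustering or naming passed. Of 15 of the genes tested, 4 were higher, 9 lower and 2 not called. Itga4 was at 162 ± 53.0 against 1.63 ± 1.68 CPM (log2 6.49 ± 0.30, adjusted p 5.977e-26), and the partner with which it forms the gut-homing receptor, Itgb7, at 98.9 ± 25.0 against 0.405 ± 0.771 CPM. Because microglia held only a few UMIs of Itgb7, its ratio of 302 has a 95% counting interval of 82.2 to 2511. Itgal, the alpha chain of LFA-1, was at 52.1 ± 20.9 against 0.387 ± 0.715 CPM, a ratio of 112 with an interval of 37.0 to 552. Its partner Itgb2 was lower than in microglia (66.6 ± 44.2 against 202 ± 29.4 CPM, log2 -1.57 ± 0.19). Itga1 was also higher than in microglia (83.5 ± 86.1 against 15.6 ± 10.8 CPM), and B cells of 12-month replicate 2 carried 247 CPM of it beside 7030 CPM of the endothelial markers, against 194 to 695 CPM of those markers in B cells of the other 5 libraries. Itgb5, Itgam, Itgav, Itga9, Col27a1 and Col15a1 were lower, Itgb5 from 744 ± 116 to 17.0 CPM.

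Within lymphocytes, 3 libraries held at least 20 cells of both kinds (12-month replicates 2 and 3 and 3-month replicate 3). There 16.7% of all genes tested and 10.2% of those with no part in clustering or naming passed. Of 7 of the genes tested, 4 were lower in B cells than in T and NK cells and none higher. Itgal was at 25.6, 8.07 and 13.5 CPM in B cells and 166, 129 and 163 CPM in T and NK cells of these libraries, with no overlap (log2 -3.36 ± 0.46, adjusted p 0.000126). Itgb2 (16.8 against 108 CPM), Itgb1 (71.2 against 238 CPM) and Itgb7 (67.0 against 178 CPM) were lower too, with adjusted p of 0.012, 0.0457 and 0.0124. Itga4 was not called, at 170 against 155 CPM (log2 0.17 ± 0.31, adjusted p 0.790).

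**Figure D4:**
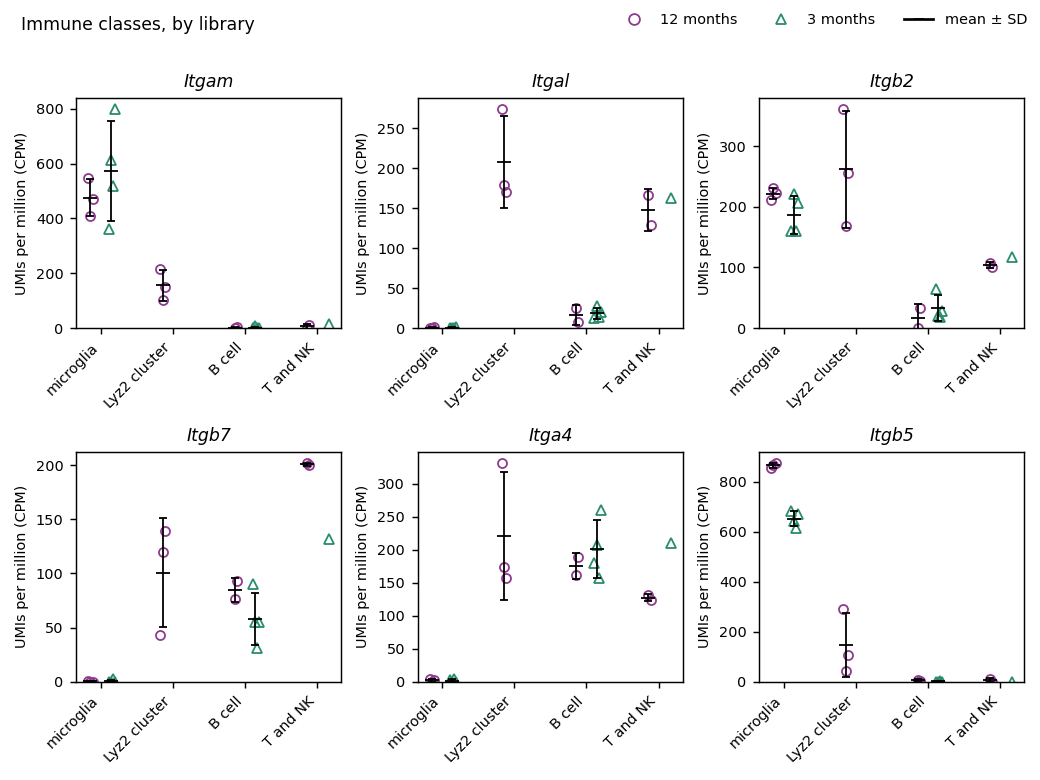
CPM of 6 integrin genes per library in microglia, the cluster led by Lyz2, B cells and T and NK cells, with purple circles for 12 and green triangles for 3 months and bars for mean ± SD within an age. Itgam and Itgb5 are highest in microglia, Itga4 is near 0 in microglia (1.63 ± 1.68 CPM) and at 124 CPM or more in every B or T and NK cell sum, and Itgal is higher in T and NK than in B cells in each shared library.

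Clusters without a class name held the highest levels of a further set of collagens, given here as descriptions. A cluster of 1295 endothelial cells led by Plvap, which codes for the diaphragm protein of fenestrated vessels, had Col13a1 at 518 ± 57.0 and Col15a1 at 318 ± 130 CPM (SD, n = 7), where no capillary, arterial or venous sum held more than 4.77 CPM of Col15a1. Itga1 (917 ± 269 CPM), Itga9 (72.7 ± 28.3 CPM) and Col4a3 (44.0 CPM) were also prominent there. A cluster of 258 cells led by Dcn, a fibroblast proteoglycan, held at least 20 cells in 5 libraries and carried pericyte markers as well. Its Col3a1 was at 973 ± 661 and Col1a2 at 451 ± 146 CPM, and Col1a1, Col5a1, Col6a1, Col6a2 and Col8a1 stood at 149, 61.0, 86.0, 57.2 and 208 CPM. Col23a1, Col6a3, Col26a1 and Col16a1 also had their highest levels in this cluster, at 51.2, 26.7, 24.5 and 20.3 CPM. A cluster of 212 cells led by Lyz2, a myeloid gene, held at least 20 cells in the 12-month libraries alone and had Itgb2 at 262, Itga4 at 221, Itgal at 208, Itgam at 156 and Itgax at 55.9 CPM.

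The 2 ages were then compared within each class over 3 and 4 libraries. Few of the 53 genes were called, as were few genes in all. The share of all genes tested that passed was 2.28% in capillary, 0.579% in arterial, 2.48% in venous, 0.768% in pericyte, 0.134% in smooth muscle and 2.15% in microglial sums. Of the 53 genes, 2 of 11 tested passed in capillaries (1 higher and 1 lower at 12 months), 1 of 15 in arterial and 1 of 12 in venous cells (both higher), 2 of 17 in pericytes (both higher) and 1 of 22 in smooth muscle (lower). In microglia 0 of 10 passed the edgeR test, 2 of them with an unadjusted p below 0.05. The ages also differed in the mix of sexes that Xist, the transcript of the inactive X chromosome, marks, since capillary sums held 620 and 905 CPM of it in 3-month replicates 1 and 2 and at most 0.914 CPM in all other libraries. In capillary sums the 3-month replicates without it had 25.8 and 28.3 CPM of Itga4 and those with it 32.9 and 30.7 CPM. The part of sex in the age differences, that of Itga4 included, was not tested.

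Itga4, the alpha chain of the VCAM-1 receptor, was lower in 12-month capillaries. The 3 libraries of 12 months had 1.83, 4.32 and 3.62 CPM and the 4 of 3 months had 32.9, 30.7, 25.8 and 28.3 CPM (replicates in the order of their numbers, here and below), from 38 and 585 UMIs in all. The ages did not overlap, at 3.25 ± 1.28 (n = 3) against 29.4 ± 3.06 CPM (n = 4), and the difference was -2.92 ± 0.25 (log2, adjusted p 2.91e-06, edgeR). It kept its direction and its call under every alternative tried, with values from -4.04 to -2.46. Capillary cells fell into 4 clusters. The levels at 12 and 3 months were 3.46 ± 3.08 against 23.4 ± 4.42 CPM in the cluster led by Gm36028, 2.14 ± 1.96 against 20.1 ± 1.13 in that led by Olfm5 and 6.69 ± 9.93 against 18.0 ± 6.60 in that led by Ifit2. The smallest cluster, led by Apln, a gene of angiogenic tip cells, had the highest level, at 190 ± 13.2 CPM from 183 UMIs in 130 cells at 3 months and 13 ± 14 CPM from 2 UMIs in 76 cells at 12 months. Without the Apln cluster, capillary Itga4 was 3.15 ± 1.16 against 21.1 ± 1.77 CPM, still without overlap. Pericyte markers stood at 26.5, 209 and 107 CPM in 12-month and 55.2, 56.3, 60.1 and 42.4 CPM in 3-month capillary sums. They were lowest in 12-month replicate 1 and highest in the other 12-month libraries, and their part in the Itga4 difference was not tested.

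In no other class did Itga4 pass the test between ages. Arterial cells had 1.91 against 5.98 CPM (adjusted p 0.318) and venous cells 1.84 against 6.95 CPM (adjusted p 0.0514) at 12 and 3 months, and smooth muscle cells 30.2 ± 10.5 against 64.8 ± 22.4 CPM (adjusted p 0.247). The ages did not overlap in any of these 3 classes. In pericytes the level was 112 ± 30.8 against 128 ± 28.3 CPM with overlapping ages. The difference between ages in pericytes was itself different from that in capillaries, by 2.76 ± 0.32 (log2, adjusted p 8.934e-08 for the age by class interaction). Passing shares over all genes for the interactions with capillaries were 0.155% in arterial, 0.979% in venous, 0.541% in pericyte, 0.455% in smooth muscle and 3.28% in microglial sums. The same test gave 0 calls among the 53 genes in arterial cells (3 at an unadjusted p below 0.05) and 0 in venous cells (0). The microglial value for Itga4, 3.92 ± 1.08 (adjusted p 0.0258), rested on 0 to 5 UMIs per microglial sum. That call was lost under 7 alternatives, among them leaving out 12-month replicate 1 (adjusted p 0.205) or 3 (0.12) or 3-month replicate 2 (0.0682) or 4 (0.0512), and with doublets kept the value was 1.99 (0.373).

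Itgb5 was higher at 12 months in several vascular classes. In capillaries it measured 7.31, 5.51 and 9.24 CPM at 12 months and 0.566, 1.79, 1.49 and 1.39 CPM at 3 months (log2 2.48 ± 0.36, adjusted p 0.000846). In arterial cells it measured 27.3, 10.4 and 20.6 against 4.25, 5.37, 4.39 and 3.29 CPM (log2 2.11 ± 0.35, adjusted p 0.00819), and without 12-month replicate 1 the adjusted p was 0.0605. Ages did not overlap in either class. These values lie under 20 CPM in most libraries, and the 2 contrasts, like that of venous Itgb4 below, were picked out after their values were seen. Microglia, where Itgb5 was highest, had 856, 865 and 877 CPM at 12 months and 682, 644, 614 and 669 CPM at 3 months (log2 0.49 ± 0.19, adjusted p 0.257). Microglial markers moved with the capillary values. The 7 markers without Sparc summed to 145, 72.7 and 162 CPM in 12-month and 27.5, 48.4, 37.7 and 36.0 CPM in 3-month capillary sums, and all 7 were detected. Those sums correspond to 0.984%, 0.413% and 0.827% of the microglial level at 12 months and 0.152%, 0.212%, 0.165% and 0.128% at 3 months. The same share of microglial Itgb5 would amount to 8.42, 3.58 and 7.26 CPM and to 1.03, 1.37, 1.01 and 0.859 CPM, beside the measured values above. In arterial cells that amount was 7.98, 2.75 and 6.09 CPM at 12 months and 1.01 to 1.53 CPM at 3 months, below every measured value there. The part of microglial RNA in the age difference was not tested.

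In pericytes Itgb5 was at 139, 132 and 234 CPM at 12 months against 94.2, 60.1, 94.6 and 87.2 CPM at 3 months (log2 1.09 ± 0.25, adjusted p 0.0303). In the pericytes with little endothelial RNA the difference was 0.24 (adjusted p 0.931), and the call was lost under 8 alternatives in all, among them leaving out 12-month replicate 3 or 3-month replicate 2, 3 or 4. Smooth muscle cells had 145 ± 23.8 against 134 ± 5.89 CPM. The interactions of the Itgb5 difference with that of capillaries were -2.25 ± 0.35 in smooth muscle and -1.91 ± 0.34 in microglia (log2, adjusted p 2.192e-05 and 6.086e-05).

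The other age calls were in the laminin receptor Itgb4 and in 2 collagens. Venous Itgb4 was at 5.77, 13.2 and 11.8 CPM at 12 months and 3.45, 3.34, 2.54 and 3.98 CPM at 3 months (log2 1.85 ± 0.32, adjusted p 0.00491), and the adjusted p was 0.13 without 12-month replicate 2. Arterial Itgb4, with more UMIs, overlapped between ages and was not called (log2 0.95 ± 0.28, adjusted p 0.188). Pericyte Col4a4 was at 69.5, 34.6 and 62.7 CPM at 12 months against 7.85, 5.82, 17.2 and 28.6 CPM at 3 months (log2 1.59 ± 0.38, adjusted p 0.0386). That call was lost without 12-month replicate 1 or 3 or 3-month replicate 2 or 3, and in the pericytes with little endothelial RNA (log2 0.8, adjusted p 0.767). The Col4a3 difference in pericytes was not called by itself (log2 1.27 ± 0.39, adjusted p 0.127) but differed from that in capillaries by 2.85 ± 0.63 (adjusted p 0.0169). That call was lost under 5 alternatives: without 12-month replicate 2 (adjusted p 0.0927) or 3 (0.0663), with doublets kept (0.367), with at least 1000 genes per cell (0.285) and with the pericytes with little endothelial RNA (0.344).

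Smooth muscle Col3a1 was lower at 12 months, at 40.7, 29.0 and 37.1 CPM against 108, 75.2, 81.3 and 111 CPM (log2 -1.47 ± 0.27, adjusted p 0.0131). The call was lost when any 1 of the 12-month libraries or 3-month replicate 4 was left out, although the ages did not overlap. Col1a2 in the same cells was at 87.3 against 200 CPM (adjusted p 0.142) and Col4a5 at 51.4 against 88.9 CPM (adjusted p 0.367), both without overlap and not called. Fibroblast markers summed to 476, 301 and 371 CPM in 12-month and 160, 317, 249 and 296 CPM in 3-month smooth muscle sums, with Lum, Igfbp6 and Slc22a6 at 0, and their part in the difference was not tested.

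**Figure D5:**
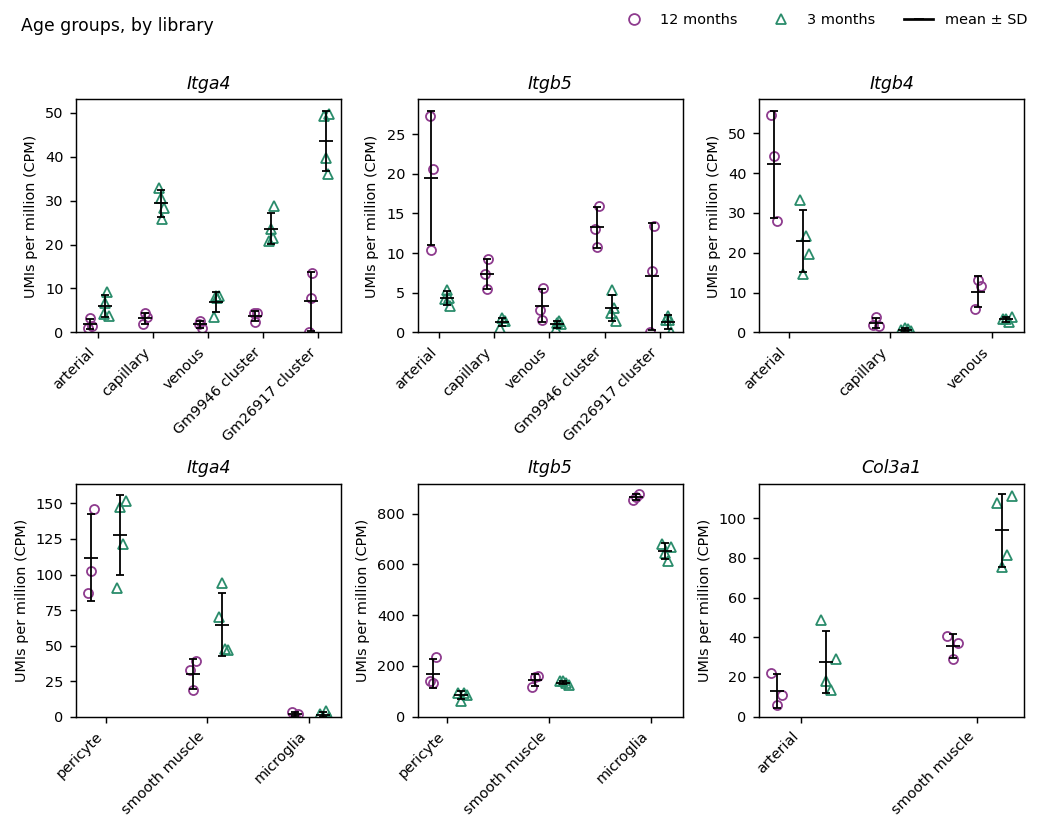
CPM per library of Itga4, Itgb5, Itgb4 and Col3a1 in named classes, with purple circles for 12 and green triangles for 3 months and bars for mean ± SD. Itga4 and Itgb5 are shown also in the unnamed endothelial clusters led by Gm9946 and Gm26917, in which ages were not tested. Capillary Itga4 sits at 1.83 to 4.32 CPM at 12 months and 25.8 to 32.9 CPM at 3 months, pericyte Itga4 overlaps between ages, and smooth muscle Col3a1 lies at 29.0 to 40.7 against 75.2 to 111 CPM.

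Genes that work with integrins and collagens were counted from separate lists. The lists held adhesion complex proteins, basement membrane proteins, RGD ligands, collagen folding and cross-linking enzymes, counter-receptors, other collagen receptors, and matrix proteases with their inhibitors. Genes used to name cells were left out of the lists for class contrasts. In arterial against capillary cells 7 of 10 RGD ligands were higher and 0 lower, where 40.3% of all genes tested passed, among them Fbn1 (fibrillin-1, log2 6.34 ± 0.24), and the alpha8 ligand Npnt (nephronectin) was at 91.1 against 2.41 CPM. Col18a1, the basement membrane collagen that the rule left out, was at 155 against 4.26 CPM in these cells, and Lox, the cross-linking enzyme of fibrillar collagen, was higher by 6.34 ± 0.31. The adhesion complex genes divided there, 11 of 29 higher and 8 lower, as did the folding enzymes, 7 of 18 higher and 5 lower. In venous against capillary cells 11 of 15 basement membrane genes were lower and 3 higher, beside 43.6% of all genes passing, with Nid1 at -1.42 and Lama5 at -1.15. Of the proteases and inhibitors, 7 of 9 were higher and 1 lower in arterial cells, and 2 of 6 higher and 4 lower in venous cells.

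In pericytes, 8 of 13 basement membrane genes were higher than in capillaries and 2 lower, beside 35.9% of all genes passing, and Lama2, the laminin alpha2 chain, was at 149 ± 48.7 against 0.266 CPM. In smooth muscle 4 of 14 were higher than in pericytes and 8 lower, beside 51.2% of all genes passing, with Lama2 at -3.49 ± 0.19. There 8 of 11 RGD ligands were higher and 3 lower, Thbs1 by 6.15 ± 0.28. Among adhesion complex genes 15 of 29 were higher in smooth muscle and 9 lower, and the actin linker Flna was at 1916 against 181 CPM. In microglia against capillaries all 12 basement membrane genes tested were lower, where 71.3% of all genes tested passed, 4209 of 11262 as lower. The kindlins changed in opposite directions there, Fermt3 at 293 against 2.53 CPM and Fermt2 at 9.71 against 484 CPM, and the collagen receptor Lair1 was at 549 against 1.08 CPM. Of the other collagen receptors tested against capillaries, 2 of 2 were higher in microglia, 3 of 3 in pericytes and 2 of 2 in arterial cells. In venous cells 1 of 2 was higher and 1 lower. The shares of all genes passing are those given above.

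Between ages, Icam1, the counter-receptor of the leukocyte integrins, was higher at 12 months in capillary (141 ± 47.2 against 42.8 ± 8.71 CPM, log2 1.76 ± 0.23) and venous cells (1007 ± 444 against 203 ± 79.8 CPM, log2 2.41 ± 0.32). It was also higher in microglia (330 against 180 CPM, log2 0.94 ± 0.21). Of the counter-receptors tested, 1 of 7 was called in capillaries, 2 of 8 in venous cells and 1 of 3 in microglia, all higher. Over all genes tested 2.28%, 2.48% and 2.15% passed there. By contrast, 0 of 7 were called in arterial cells, 0 of 7 in pericytes and 0 of 5 in smooth muscle. All-gene shares in those classes were 0.579%, 0.768% and 0.134%. Icam1 was also among the markers from which venous cells were named. The median log2 difference of the 3 counter-receptors tested in microglia was -0.487. Of 17 collagen folding enzymes tested in capillaries 3 were higher at 12 months and none lower, namely the prolyl hydroxylase chains P4ha1 (log2 0.96 ± 0.23) and P4ha2 (1.5 ± 0.34) and the lysyl hydroxylase Plod2 (0.85 ± 0.19), beside 2.28% of all genes passing. P4ha2 was at 31.7 ± 22.5 CPM at 12 months, from 17.3 to 57.6, against 10.1 ± 1.53 CPM at 3 months. None of the age calls named in this paragraph, those of Icam1, Ccn2 and Bcar1 included, was retested with libraries left out. In smooth muscle the matricellular integrin ligand Ccn2 was lower at 12 months (143 against 350 CPM, log2 -1.35 ± 0.26). It was the 1 gene called of 12 RGD ligands tested there, beside 0.134% of all genes. In pericytes the adhesion scaffold Bcar1 was higher (log2 1.01 ± 0.25), the 1 gene called of 29 adhesion complex genes tested, beside 0.768% of all genes. Of the RGD ligands, 2 of 9 were higher in capillaries and 1 of 9 lower in venous cells. Of the other collagen receptors 1 of 2 was higher in arterial cells, and of the proteases and inhibitors 1 of 2 in microglia. All-gene shares there were 2.28%, 2.48%, 0.579% and 2.15% in the same order.

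Some levels differed between libraries of the same age across classes. In each of the 6 classes found in all 7 libraries, Itgb1 was highest in replicate 1 of the 12-month libraries, at 657 against 282 and 302 CPM in capillaries and 2306 against 841 and 1021 CPM in smooth muscle. Itga1 was lowest in replicate 1 of the 3-month libraries in the same 6 classes, and Itga6 in all of them except smooth muscle, with 300 against 572 to 604 CPM of Itga6 in capillaries. Both replicates have the lowest totals of UMIs of their age, and the part of depth in these levels was not tested.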

How the data were processed

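Single-cell RNA libraries of mice aged 12 months (3 libraries) and 3 months (4 libraries) were analysed from the deposited matrices, which hold raw UMI counts per gene and barcode. The authors made these counts with Cell Ranger 4.0.0 (12 months) and 6.1.1 (3 months), per the file headers, and the submitters' processing notes name the build mm10 and Seurat. No source used here gives settings or says whether intronic reads were counted. All columns of the matrices could be assigned to a sample by the labels.

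Barcodes under 500 genes or over 15% mitochondrial UMIs were removed, as were the highest scrublet scores (scanpy 1.11.5) at 0.8% per 1000 barcodes, 2139 in all. Clustering used Seurat 5.3.0 under R 4.3.3 (2000 variable genes, 30 principal components, RPCA over libraries, resolution 0.5). The 53 genes and the lists of genes that work with them were kept out of the variable genes, as were mitochondrial, ribosomal and several sex-linked genes. Cell type markers outside those lists were not kept out, so clustering and naming could share genes. Clusters were named from marker lists. The rules by which a cluster stayed unnamed were set after seeing the data, so class boundaries are rebuilt ones. The members and lists were chosen with earlier results of these data known.

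For each library, counts were added up over the cells of a class (at least 20) and tested with edgeR 4.0.16 (TMM, filterByExpr, robust quasi-likelihood test, Benjamini-Hochberg adjustment over all genes tested, threshold 0.05). Class contrasts had library as a term, age contrasts had age alone, and the interaction fit had library, class and age within class. Ratios with few counts carry a 95% counting interval, a count of 0 was allowed 3 counts, and both cover counting error only. Depth limits genes of low level, since 12-month replicate 1 has the fewest UMIs. Only the fits of arterial against capillary cells and of age in capillaries and in pericytes were also run on simulated counts. The outcome is not given here and no result rests on it. In each comparison the text names called genes with at least 20 CPM on the higher side, up to 8 in each direction by fold change, their known partners, and up to 3 called genes a list. Exceptions are stated where they occur. Alternatives were DESeq2 1.42.0, its size factors in edgeR, no expression filter, 1000 genes per cell, resolution 1, doublets kept, equal depth, no library term, pericytes with little endothelial RNA, each library left out in turn and a replicate block, and, chosen after seeing the data, an unnamed cluster led by Gm26917 counted as capillary. Positions came from GENCODE vM21 and promoter windows from RefSeq, both on GRCm38. The 3' tag counts do not tell splice forms apart. Same-strand coding genes overlap Itga1, Itga10 and Itgam, and their counts are uncertain to that extent.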

Additional observations from a re-analysis of the deposited data

Results flagged for a closer look

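Of 53 groups of 4 libraries examined for a library far from the others, 4 had 1, and chance gives about 1 in 20. Itga6 in capillary cells of 3-month replicate 1 was 299.9 CPM, where the other 3-month libraries had 572.1 to 603.9. Itga1 in pericytes of the same library was 545.4 CPM against 957.3 to 1015. Itgav in pericytes of 3-month replicate 2 was 69.86 CPM against 47.08 to 50.03, and Itga3 in smooth muscle cells of 3-month replicate 3 was 37.51 CPM against 25.42 to 27.23.

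In 5 cases the difference between the ages was itself different between a class and capillary cells (edgeR interaction term, adjusted p under 0.05). The log2 values were 2.755 for Itga4 and 2.852 for Col4a3 in pericytes, -2.246 for Itgb5 in smooth muscle cells, and 3.922 for Itga4 and -1.912 for Itgb5 in microglia. The microglial Itga4 value rests on 0 to 5 UMIs per library and lost its call under 7 alternatives, 4 of them left-out libraries. The Col4a3 value lost its call under 5, without 12-month replicate 2 or 3 among them. The Itga4 value in pericytes and both Itgb5 values lost theirs under 1 each, and the Itgb5 values are set against capillary sums of 0.566 to 9.24 CPM, in which microglial markers also differed between the ages.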

How the results depend on the processing

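Over 123 results for single genes, 1827 values were computed under alternatives, of which 1750 kept their direction and call, 74 lost the call and 3 turned sign. The 3 were the smooth muscle against pericyte differences of Col6a2 (-0.583), Itga7 (-0.215) and Itgb5 (-0.533) when only pericytes with little endothelial RNA were used. A gene that an alternative did not test, or that got no adjusted p, gave no value and is not in the 1827. At equal depth 48 of the results kept direction and call, 8 lost the call and the others gave no value. The capillary age result of Itgb5 gave none at equal depth or at 1000 genes per cell. Counts of called genes moved most at equal depth, where the UMI sums were thinned at random to the smallest sum of each fit. There 9 of the genes were called in venous cells, 5 in pericytes, 5 in smooth muscle, 8 in microglia and 2 in lymphocytes. By age, equal depth left 1 in capillary, 0 in venous, 0 in pericyte and 0 in smooth muscle sums and 0 interactions. Without the library term 9 were called in venous cells and 11 in pericytes. Without the expression filter the age counts were 4 in arterial, 4 in venous, 3 in smooth muscle and 1 in microglial sums, and 8 interactions. With at least 1000 genes per cell they were 1 in capillary, 2 in venous and 0 in pericyte sums, and at resolution 1 there were 2 in venous sums. DESeq2 called 0 in pericytes and 3 interactions. With doublets kept there were 0 in pericytes, 0 in smooth muscle and 3 interactions, and pericytes with little endothelial RNA gave 0. The cause of these moves was not tested.

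With 1 library left out, the counts were 15 to 15 in arterial, 13 to 16 in venous, 20 to 27 in pericyte, 20 to 23 in smooth muscle, 17 to 20 in microglial, 12 to 14 in lymphocyte and 4 to 4 in B against T and NK comparisons. By age they were 2 to 3 in capillary, 0 to 2 in arterial (0 without 12-month replicate 1), 0 to 2 in venous (0 without 12-month replicate 2), 0 to 2 in pericyte (0 without 12-month replicate 3, 3-month replicate 2 or 3-month replicate 3), 0 to 2 in smooth muscle (0 without any 12-month library or 3-month replicate 4) and 0 to 0 in microglial sums, and 3 to 5 for interactions (3 without 12-month replicate 3). The replicate block gave 2, 1, 1, 2, 1 and 0 calls by age in capillary, arterial, venous, pericyte, smooth muscle and microglial sums. Correlations of the deviations of same-numbered libraries ran from -0.08 to 0.386 and were not over 0.1 for every number in any class, so the numbers were not taken as pairs. The 12-month library numbered 2 correlated most with the 3-month library of its number in all 6 classes (0.043 to 0.386), which did not hold for the other numbers, a hint from the data and not from the design. B against T and NK cells was not run without 12-month replicate 2, 12-month replicate 3 or 3-month replicate 3, or at 1000 genes per cell, since fewer than 3 libraries then held both classes. Depth limits genes near 1 CPM and the pericyte, lymphocyte and 12-month replicate 1 sums most.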
